A study of Mus musculus with 4 samples.

Results

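The genes described here are 51 interferon-stimulated effector genes, out of 51905 genes measured by RNA-seq in mouse colorectal cancer lines with or without knockdown of Aurora-A. They were chosen by name: every listed symbol was looked up in the deposited gene tables, all 51 were found, and no measured value is part of the rule. The list itself was chosen with earlier results of these data known. The set was read as 3 groups, namely 11 Ifit, Oas and Mx genes, 7 GTPases (Gbp2, Gbp3, Gbp7, Igtp, Irgm1, Irgm2 and Iigp1) and 33 other effectors. Both lines, CT26 and MC38, had received lentiviral short hairpins, either the control shGFP, aimed at GFP, or shmaurka-1, a single hairpin aimed at mouse Aurora-A. The infected cells were selected with puromycin, and RNA was collected 48 h after seeding. The labels give the tissue as colon and the genotype as WT for all 4 libraries. They call CT26 a fibroblast and MC38 an epithelial cell. CT26 was grown in RPMI-1640 and MC38 in high glucose DMEM, so cell line, mouse strain and medium cannot be told apart. There was 1 library for each line and hairpin. A difference within a line therefore has no replicate behind it, and the only replication of the knockdown is the second line.

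Interferons are secreted proteins that cells make when they sense foreign or misplaced nucleic acid, and they act through cell surface receptors and the JAK kinases. Type I interferons act mainly through a complex that includes STAT2 and IRF9 and binds the interferon-stimulated response element (ISRE), while interferon gamma acts mainly through the gamma-activated site (GAS). The proteins made in response bind viral RNA, cut or modify RNA, deplete nucleotides, tag other proteins or attack the membranes of intracellular parasites. Ifit, Oas and Mx genes are the classic type I effectors, whereas the guanylate-binding proteins and the immunity-related GTPases are strongly induced by interferon gamma, and many genes answer to both.

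The libraries held 22207768 to 23752268 fragments, recovered from the deposited counts, and the deepest held 1.07 times the fragments of the shallowest. Aurka, the targeted gene (chromosome 2, 172356190 to 172370535, GRCm38), had 268 CPM in CT26 shGFP, 55.7 in CT26 shmaurka-1, 91.3 in MC38 shGFP and 16.7 in MC38 shmaurka-1. CPM are counts scaled to a common library size after normalization between libraries. Aurka was lower in the knockdown library of both lines, by a log2 fold change of -2.27 in CT26 and -2.45 in MC38. The epithelial markers went against the label of MC38: Epcam and Cdh1, which epithelial cells use for adhesion, had at most 6 fragments in any library, and the summed level of 9 epithelial markers was 93.4 and 87.8 CPM in the CT26 libraries but 3.22 and 2.80 CPM in the MC38 libraries. The CT26 sum was almost all Krt18 (71.0 and 75.6 CPM) and Krt20 (20.3 and 10.4 CPM), while Krt8 stood below 1 CPM in all 4 libraries and Vil1 had 0 fragments in CT26 and 38 and 29 in MC38. Mesenchymal markers summed to between 3515 and 6185 CPM. Of 13 leukocyte markers, 9 had at most 3 fragments in every library, Cd3e, Nkg7 and Ncr1 had 0 in all 4, and the sum lay between 5.30 and 8.10 CPM.

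Most of the effector genes were higher in the knockdown library of both lines, by a modest amount. Of the 51 genes, 50 passed the filter on low counts (a mean of 10 or more in both lines), and 46 of these 50 had higher levels with shmaurka-1 in both lines, where 28.0% of the 11928 genes tested did. Only Ifi27 was lower in both, where 28.9% of all genes were. Over the 50 effectors, the median change on the log2 scale was 0.32 for CT26 and 0.31 for MC38, or 1.25-fold and 1.24-fold, beside -0.005 and -0.001 over all genes tested. The summed level of the 51 genes went from 9646 to 11488 CPM in CT26 and from 5957 to 7365 CPM in MC38. In these bulk libraries, a higher share of cells with these transcripts and more of them per cell cannot be told apart.

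In edgeR's quasi-likelihood test of the effect common to both lines, in which cell line was a block and p-values were adjusted (Benjamini-Hochberg) over all 11928 genes, 21 of the 50 effectors rose and 0 fell at an adjusted p of 0.05. Over all genes, 1.67% rose and 1.12% fell. Without adjustment, 34 effectors were higher and 1 was lower at p under 0.05, where 12.3% of all genes passed in either direction. The 21 genes were Ifit1, Ifit3, Oas2, Oasl1, Oasl2, Mx2, Gbp2, Gbp3, Irgm1, Irgm2, Iigp1, Usp18, Uba7, Parp12, Parp14, Dtx3l, Rsad2, Cmpk2, Ddx60, Nmi and Ifi44. The test has 1 residual degree of freedom and takes the spread (a coefficient of variation of 0.085) from all genes. The SE and p-value of a gene therefore do not measure how far the 2 lines differed for that gene. DESeq2 called 3 effectors higher (Ifit1, Rsad2 and Gbp3), where it called 0.155% of all genes higher. A minimum of 50 counts per gene left 11 effectors higher and a fit without the block for cell line 0. When libraries were scaled to their total counts, 18 effectors rose, and the share of all calls that were higher went from 59.8% to 49.1%. In the files, 18 of the 51 genes share a locus with other genes, and whether the counting used strand is not given in the sources used here, so their values could hold fragments of a neighbour.

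The size of the change differed from gene to gene more than the sum shows. In CT26, 5 effectors were over 1.5-fold higher in the knockdown library (Iigp1, Uba7, Gbp2, Gbp3 and Ifit3b), where 3.20% of all genes were. In MC38 there were 3 (Ifit3, Ifit1 and Rsad2), where 2.47% of all genes were. None of the 50 passed 1.5-fold in both lines, as 0.360% of all genes did, and none was under 0.6-fold in either line, where 2.58% were in CT26 and 1.03% in MC38. Each within-line value below carries a 95% exact conditional binomial interval on whole fragments. It compares 2 libraries, not 2 conditions, and covers counting error only, since 1 library stood for each condition. Fragments without molecular identifiers are not independent molecules, so the counting error itself may be larger than the interval shows. By that interval 41 effectors lay above no change in CT26 and 42 in MC38, where 21.8% and 22.7% of all genes did, and 1 lay below it in each line (Ifi27), where 21.4% and 22.3% did. The plot of log2 fold changes by gene shows these values in order of function.

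**Figure D1:**
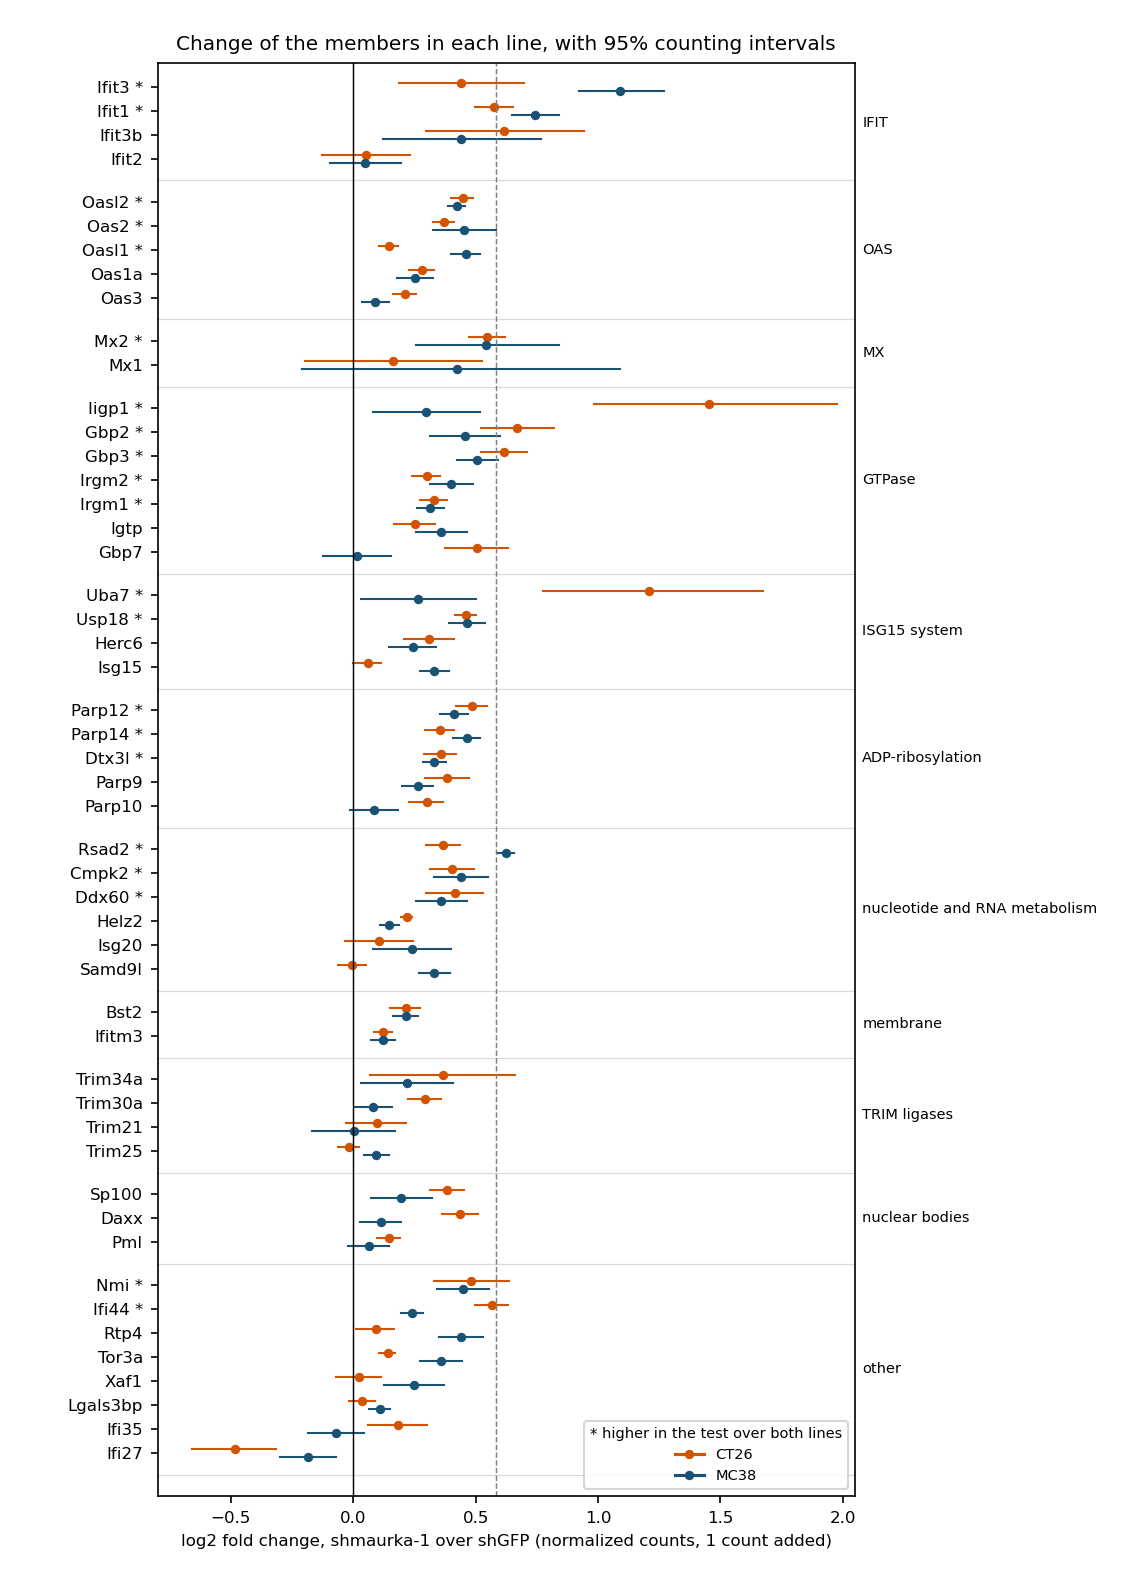
Log2 fold change of each of the 50 effectors tested, shmaurka-1 over shGFP, in CT26 (orange) and MC38 (blue), with 95% counting intervals as bars; genes are grouped by role, the dashed line marks 1.5-fold, and a star marks the 21 genes that rose in the test over both lines. Most points lie between no change and 1.5-fold; Iigp1 and Uba7 in CT26 and Ifit3 in MC38 reach furthest to the right, and Ifi27 lies to the left of no change in both lines.

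The IFIT proteins act against viral RNA, IFIT1 by binding RNA that lacks the methyl marks of the host's cap. The 4 Ifit genes of this set lie in a cluster on chromosome 19 (34550694 to 34650009). Ifit1 had 107 CPM with shGFP and 160 with shmaurka-1 in CT26, and 56.3 and 94.2 CPM in MC38. Ifit1 rose in the test over both lines (log2 fold change 0.66 ± 0.11 SE, edgeR adjusted p = 2.54e-07), with 0.58 (95% interval 0.50 to 0.65) in CT26 and 0.74 (0.65 to 0.84) in MC38. Ifit3 had 10.9 and 14.8 CPM in CT26 and 16.1 and 34.4 CPM in MC38. It also rose (0.79 ± 0.15 SE, edgeR adjusted p = 5.12e-05), and its intervals in the lines did not overlap: 0.44 (0.19 to 0.70) in CT26 and 1.09 (0.92 to 1.27) in MC38, or 1.36-fold and 2.13-fold. Ifit3b, a near copy of Ifit3, had 6.47 and 9.93 CPM in CT26 and 5.64 and 7.66 CPM in MC38. It missed the threshold (0.53 ± 0.20 SE, edgeR adjusted p = 0.167), and since fragments from the shared parts of Ifit3 and Ifit3b could be counted for either, the values of both are uncertain. Ifit2 had 24.9 and 25.8 CPM in CT26 and 30.5 and 31.5 CPM in MC38, a log2 fold change of 0.05 in each line, so for the gene next to Ifit3 in this cluster both counting intervals included no change.

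The upstream sequences of Ifit1, Ifit3 and Ifit3b are printed because they hold matches to the core letters of the ISRE. They are stretches of 130 bases upstream of the start site in RefSeq (GRCm38.p6), written 5′ to 3′ on the gene's strand, and the capitals mark each match to the core ISRE letters (TTTC, any 2 bases, TTTC) or to the GAS letters (TTC, any 3 bases, GAA) on either strand. The stretch of Ifit1 is chr19:34640759-34640888, that of Ifit3 chr19:34583339-34583468 and that of Ifit3b chr19:34607735-34607864, all on the plus strand.
Ifit1: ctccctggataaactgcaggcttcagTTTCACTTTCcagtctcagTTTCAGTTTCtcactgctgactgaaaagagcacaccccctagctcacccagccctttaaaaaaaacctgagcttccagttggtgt
Ifit3: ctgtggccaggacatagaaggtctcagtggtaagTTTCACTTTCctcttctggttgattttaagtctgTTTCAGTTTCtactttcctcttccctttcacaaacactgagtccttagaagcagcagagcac
Ifit3b: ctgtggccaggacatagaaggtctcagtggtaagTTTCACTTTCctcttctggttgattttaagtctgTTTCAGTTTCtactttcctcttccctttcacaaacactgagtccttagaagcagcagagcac
The Ifit3 and Ifit3b stretches were identical at 130 of 130 bases, and each holds 2 ISRE matches. Ifit1 also holds 2, in the same 2 versions of the letters, and was otherwise unlike them, with 36 of 130 bases identical to Ifit3 in register. The window of Ifit2, from 250 bases before the start to 50 after it, held 1 GAS match and no ISRE match, which says only that these letters are not in that window.

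The OAS proteins are sensors of double-stranded RNA. Oas1a, Oas2 and Oas3 make the messenger that switches on RNase L, and Oasl1 and Oasl2 are OAS-like genes. Oas2 had 367 CPM with shGFP and 474 with shmaurka-1 in CT26, and 34.7 and 47.5 CPM in MC38. Oas2 rose (log2 fold change 0.41 ± 0.10 SE, edgeR adjusted p = 0.00366), and its intervals in the lines overlapped, although its level was far lower in MC38. Oasl2 had 334 and 455 CPM in CT26 and 492 and 660 CPM in MC38, and rose as well (0.43 ± 0.09 SE, edgeR adjusted p = 0.000309). Its neighbour Oasl1 had 492 and 544 CPM in CT26 and 154 and 212 CPM in MC38. Oasl1 only just passed (0.30 ± 0.09 SE, edgeR adjusted p = 0.0478), with a smaller fold change in CT26 (0.14, interval 0.10 to 0.18) than in MC38 (0.46, 0.40 to 0.52). Oas1a had 295 and 358 CPM in CT26 and 112 and 133 CPM in MC38, and Oas3 had 333 and 386 CPM in CT26 and 211 and 224 CPM in MC38. Both values were higher with shmaurka-1 in each line, but neither gene passed the test (edgeR adjusted p = 0.130 for Oas1a and 0.565 for Oas3).

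The Mx proteins are dynamin-like GTPases that trap viral particles or their components. Mx2 had 117 CPM with shGFP and 171 with shmaurka-1 in CT26, and 6.63 and 9.68 CPM in MC38. Mx2 rose (log2 fold change 0.55 ± 0.12 SE, edgeR adjusted p = 0.000971), with 0.55 in CT26 and 0.54 in MC38. Mx1 was scarce, with 6.0 and 6.72 CPM in CT26 and 1.47 and 1.99 CPM in MC38. Its counting intervals included no change in both lines, and in CT26 the deposited FPKM values, which are scaled by transcript length as well as depth, gave the opposite direction, a ratio of 0.79. In all, 6 of the 11 Ifit, Oas and Mx genes rose, and the other 5 had higher values in both lines without passing.

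The guanylate-binding proteins coat and break the vacuoles of intracellular pathogens. Gbp7, Gbp3 and Gbp2 lie in a cluster on chromosome 3 (142530342 to 142638008). Gbp3 had 74.9 CPM with shGFP and 115 with shmaurka-1 in CT26, and 79.5 and 113 CPM in MC38. Gbp3 rose, with overlapping intervals in the lines (log2 fold change 0.56 ± 0.11 SE, edgeR adjusted p = 3.83e-05), with 0.62 (0.52 to 0.71) in CT26 and 0.51 (0.42 to 0.59) in MC38. Gbp2 had 28.5 and 45.4 CPM in CT26 and 28.1 and 38.6 CPM in MC38, and rose too (0.56 ± 0.13 SE, edgeR adjusted p = 0.00169). Gbp7 had 39.9 and 56.6 CPM in CT26 and 34.5 and 34.9 CPM in MC38. Its intervals were apart, 0.51 (0.37 to 0.63) in CT26 and 0.02 (-0.12 to 0.15) in MC38, and it did not pass the common test (edgeR adjusted p = 0.334).

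The immunity-related GTPases mark and disrupt parasite vacuoles, with Irgm1, Irgm2 and Igtp (also called Irgm3) acting as regulators that protect host membranes and Iigp1 as an effector. Irgm1 had 244 CPM with shGFP and 306 with shmaurka-1 in CT26, and 195 and 242 CPM in MC38. Irgm1 rose by a log2 fold change of 0.32 ± 0.10 SE (edgeR adjusted p = 0.0326). Irgm2 had 212 and 261 CPM in CT26 and 73.2 and 96.7 CPM in MC38, and rose (0.35 ± 0.10 SE, edgeR adjusted p = 0.0248). Igtp, which shares its locus on chromosome 11 (58199556 to 58222782) with Irgm2 in the files, had 101 and 120 CPM in CT26 and 54.2 and 69.5 CPM in MC38, with an edgeR adjusted p of 0.107. Iigp1 was the scarcest of the GTPases and had the widest spread: 2.30 and 6.37 CPM in CT26, from 49 and 125 fragments, against 12.8 and 15.7 CPM in MC38. Iigp1 rose in the common test (0.75 ± 0.20 SE, edgeR adjusted p = 0.00963), with 1.45 (0.98 to 1.98) in CT26 and 0.30 (0.08 to 0.52) in MC38, or 2.74-fold and 1.23-fold. That SE does not include the gap between the lines, and DESeq2 did not call Iigp1 (DESeq2 adjusted p = 0.713).

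The upstream stretches of 4 GTPases are shown in the same way, since their windows hold ISRE letters alone or next to GAS letters. They are chr3:142559914-142560043 for Gbp3 (plus strand), chr11:48871421-48871550 for Irgm1 (minus strand), chr11:58199426-58199555 for Igtp (plus strand) and chr11:58214817-58214946 for Irgm2 (plus strand).
Gbp3: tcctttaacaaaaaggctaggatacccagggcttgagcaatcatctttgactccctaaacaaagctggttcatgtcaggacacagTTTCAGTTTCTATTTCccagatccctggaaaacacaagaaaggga
Irgm1: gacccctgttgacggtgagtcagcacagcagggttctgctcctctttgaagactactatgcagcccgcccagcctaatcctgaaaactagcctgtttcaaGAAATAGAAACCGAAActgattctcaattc
Igtp: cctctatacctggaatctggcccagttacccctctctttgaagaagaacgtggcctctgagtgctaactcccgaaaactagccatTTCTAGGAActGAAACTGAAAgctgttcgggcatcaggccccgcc
Irgm2: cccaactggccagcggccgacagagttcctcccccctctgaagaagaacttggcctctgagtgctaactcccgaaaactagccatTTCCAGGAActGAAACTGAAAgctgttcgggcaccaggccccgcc
Gbp3 and Irgm1 each hold 2 overlapping ISRE matches. Igtp and Irgm2 share 107 of 130 bases (82.3%), and in both a GAS match comes just before an ISRE match.

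Members of both classes rose with knockdown. In the test over both lines, 6 of 11 Ifit, Oas and Mx genes and 5 of 7 GTPases rose. The median log2 fold change of the Ifit, Oas and Mx genes was 0.37 in CT26 and 0.44 in MC38, and that of the GTPases was 0.51 in CT26 and 0.36 in MC38. The GTPases thus had the higher median in CT26 and the lower one in MC38. That order held in 8 of 8 alternative ways of computing the fold changes in each line. All of these ways reused the same 4 libraries, so they cannot show whether the order would recur. Single Ifit, Oas and Mx genes ranged from 0.05 to 0.62 (CT26) and from 0.05 to 1.09 (MC38). Single GTPases ranged from 0.25 to 1.45 (CT26) and from 0.02 to 0.51 (MC38), so the ranges of the classes overlapped in each line. These ranges describe the genes of a class, which are not replicates of a condition. The difference between the classes was not tested, since 1 library stood for each condition. Summed over its genes, the first class went from 2093 to 2605 CPM in CT26 (1.24 times) and from 1121 to 1457 CPM in MC38 (1.30 times), and the GTPases from 702 to 910 CPM (1.30 times) and from 477 to 611 CPM (1.28 times).

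**Figure D2:**
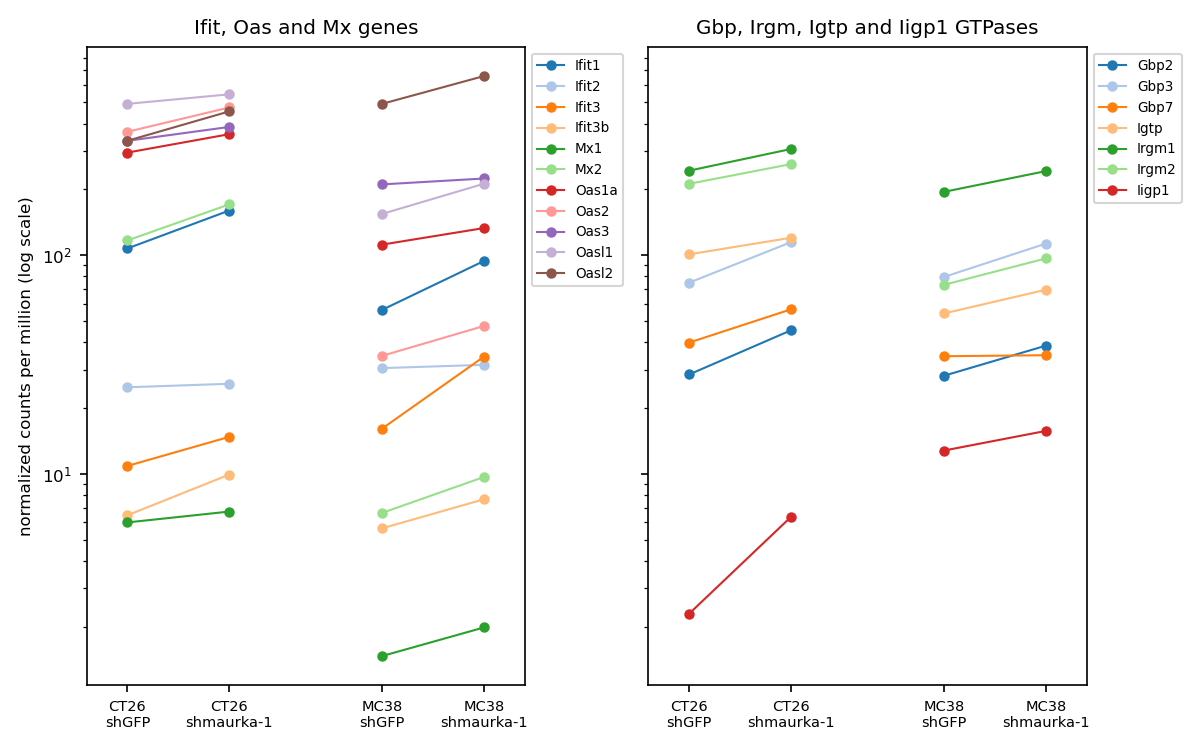
Normalized CPM (log axis) of the 11 Ifit, Oas and Mx genes (left) and the 7 GTPases (right) in each of the 4 libraries, 1 point per library, with lines joining shGFP and shmaurka-1 of the same cell line. All lines slope upward; Iigp1 in CT26 (2.30 to 6.37 CPM) and Ifit3 in MC38 (16.1 to 34.4 CPM) are the steepest, while Ifit2 and, in MC38, Gbp7 are nearly flat.

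**Figure D3:**
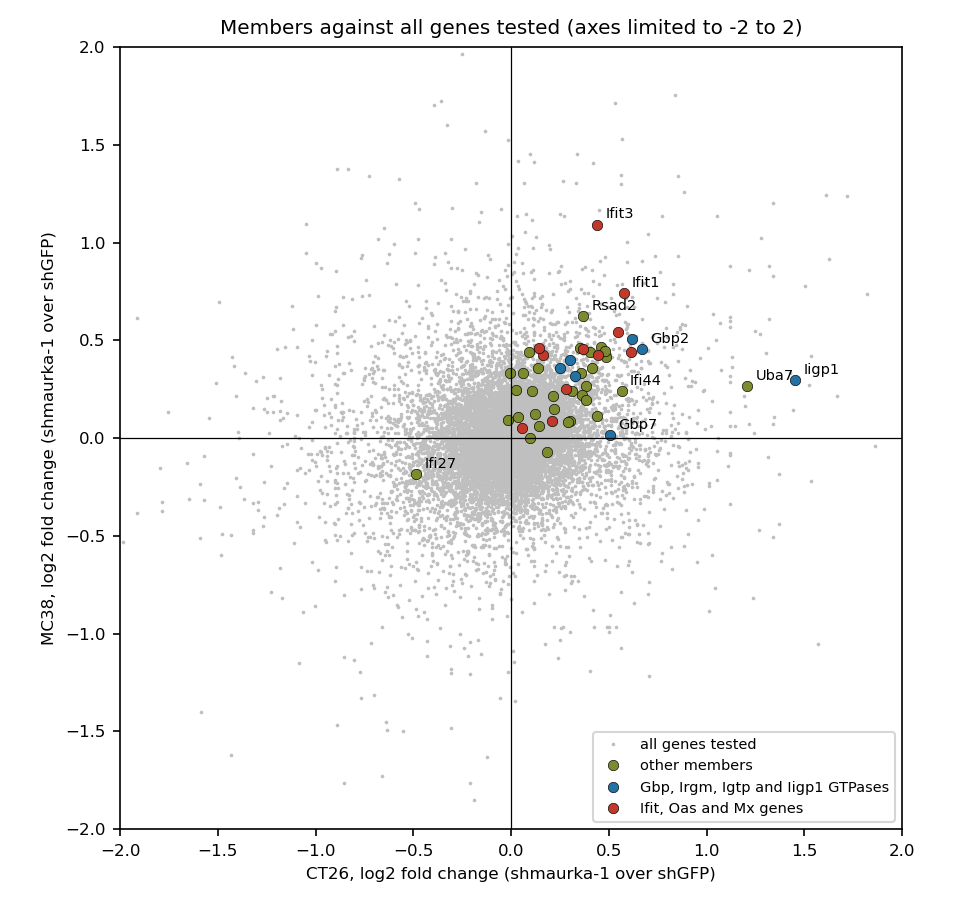
Log2 fold change (shmaurka-1 over shGFP) in MC38 against that in CT26 for all genes tested (grey) and for the effectors, coloured by class; both axes are limited to values from -2 to 2. Of 50 effectors, 46 lie above 0 on both axes and Ifi27 alone lies below 0 on both.

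ISG15 is a ubiquitin-like protein that is joined to other proteins by enzymes which include UBA7 and, in mice, HERC6, and removed by USP18, which also blunts the type I receptor. Usp18 had 364 CPM with shGFP and 501 with shmaurka-1 in CT26, and 101 and 139 CPM in MC38. Usp18 rose (log2 fold change 0.46 ± 0.10 SE, edgeR adjusted p = 0.000239), with 0.46 in each line. Uba7 had 2.95 and 6.88 CPM in CT26 and 11.2 and 13.4 CPM in MC38, and rose (0.66 ± 0.20 SE, edgeR adjusted p = 0.0373). Its change was uneven, with 1.21 (0.78 to 1.67) in CT26 and 0.26 (0.03 to 0.50) in MC38. DESeq2 did not call Uba7 (DESeq2 adjusted p = 0.983). The MC38 value is uncertain, because Uba7 shares its locus in the files with 9 other genes and its FPKM ratio in MC38 was 0.98. Isg15 had 238 and 248 CPM in CT26 and 173 and 218 CPM in MC38. Isg15 did not pass (0.20 ± 0.10 SE, edgeR adjusted p = 0.379), and its fold change was near 0 in CT26 (0.06, 0.00 to 0.11) and higher in MC38 (0.33, 0.27 to 0.39).

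The PARP genes of this set encode enzymes that attach ADP-ribose to proteins or RNA, and DTX3L is the ubiquitin ligase partner of PARP9. Of 5 genes in this group, 3 rose. Parp12 had 169 CPM with shGFP and 236 with shmaurka-1 in CT26, and 173 and 231 CPM in MC38, and Parp14 had 204 and 261 CPM in CT26 and 182 and 251 CPM in MC38. Dtx3l had 163 and 209 CPM in CT26 and 257 and 323 CPM in MC38. The intervals of the lines overlapped for each of these 3 genes, with common log2 fold changes of 0.45 ± 0.10 SE for Parp12 (edgeR adjusted p = 0.00062), 0.41 ± 0.10 for Parp14 (0.00255) and 0.34 ± 0.10 for Dtx3l (0.0182). Parp9, which shares its locus with Dtx3l in the files, lay just outside the threshold at an edgeR adjusted p of 0.0532.

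Among the genes of nucleotide and RNA metabolism, viperin (Rsad2) makes a chain-terminating nucleotide, CMPK2 supplies its substrate, and DDX60 is a helicase. Rsad2 had 146 CPM with shGFP and 188 with shmaurka-1 in CT26, and 475 and 732 CPM in MC38. Rsad2 rose (log2 fold change 0.50 ± 0.09 SE, edgeR adjusted p = 3.08e-05), by 0.37 (0.30 to 0.44) in CT26 and by 0.62 (0.59 to 0.66) in MC38. Its neighbour Cmpk2 on chromosome 12 had 88.2 and 117 CPM in CT26 and 46.0 and 62.4 CPM in MC38, and rose (0.42 ± 0.11 SE, edgeR adjusted p = 0.00808). Ddx60 had 50.8 and 67.7 CPM in CT26 and 53.5 and 68.7 CPM in MC38, and rose as well (0.39 ± 0.12 SE, edgeR adjusted p = 0.0325).

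Nmi, a partner of STAT and MYC proteins, had 29.2 CPM with shGFP and 40.8 with shmaurka-1 in CT26, and 50.5 and 68.8 CPM in MC38, and rose (log2 fold change 0.46 ± 0.12 SE, edgeR adjusted p = 0.00978). Ifi44 had 151 and 224 CPM in CT26 and 276 and 326 CPM in MC38. Ifi44 rose (0.40 ± 0.10 SE, edgeR adjusted p = 0.00288), by more in CT26 (0.57, 0.50 to 0.63) than in MC38 (0.24, 0.19 to 0.29) by counting error. The membrane proteins IFITM3, which blocks the fusion of viruses in endosomes, and tetherin (Bst2), which holds budding virus on the cell, were with Isg15 the most abundant of the 51 genes per transcript length. Ifitm3 had 1119 FPKM in CT26 shGFP, 1253 in CT26 shmaurka-1, 513 in MC38 shGFP and 558 in MC38 shmaurka-1. Bst2 had 250 and 300 FPKM in CT26 and 302 and 350 FPKM in MC38. Their log2 fold changes in counts were 0.12 for Ifitm3 and 0.21 for Bst2 in each line, and neither passed the test (edgeR adjusted p = 0.672 and 0.295).

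The remaining 20 genes fell outside the rule for named genes, and 19 of them were tested. None of the 19 rose or fell at an adjusted p of 0.05 in edgeR or DESeq2, although 8 passed at an unadjusted p of 0.05 in edgeR. Their log2 fold changes ran from -0.49 to 0.44 in CT26 (median 0.15) and from -0.19 to 0.44 in MC38 (median 0.15), and 15 were higher in both lines. The following are named after their values were seen. Ifi27 had 33.6 and 24.0 CPM in CT26 and 53.2 and 46.7 CPM in MC38, log2 fold changes of -0.49 (-0.66 to -0.32) and -0.19 (-0.30 to -0.07), and did not pass (edgeR adjusted p = 0.171). The 4 TRIM ubiquitin ligases had none called and medians of 0.19 in CT26 and 0.09 in MC38. Sp100, Daxx and Pml, which make up PML nuclear bodies, were higher in both lines, with medians of 0.38 in CT26 and 0.11 in MC38, and 0 of 3 passed the adjusted test in edgeR or DESeq2 while 2 of 3 passed at an unadjusted p of 0.05 in edgeR. Epsti1 did not reach the count minimum, with 0.42 and 0.20 CPM in CT26 and 2.82 and 2.80 CPM in MC38.

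By counting error, the intervals of the lines did not overlap for 20 of the 50 genes, where they did not for 26.0% of all genes tested. Of the 20, 10 had the larger fold change in CT26 and 10 in MC38, where 13.0% of all genes did in each direction. These intervals narrow as counts grow, and the shares were not compared at matched levels. Iigp1, Uba7, Gbp7 and Ifi44 were among the first 10, and Ifit3, Rsad2, Oasl1 and Isg15 among the second. Since each line had 1 library per hairpin, this compares libraries, and a difference in response between the lines was not tested.

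The effectors also stood at different levels in the lines. In the same edgeR fit, with hairpin as a block, 28 of 50 effectors were higher in CT26 and 14 in MC38, where 36.6% of all genes were higher in CT26 and 36.7% in MC38. Mx2 was higher in CT26 by 4.14 on the log2 scale, Oas2 by 3.36, Tor3a by 2.97, Sp100 by 1.96 and Mx1 by 1.88. Rsad2, Iigp1 and Uba7 had the reverse order, with log2 differences (CT26 over MC38) of -1.84, -1.80 and -1.38. Of the Ifit, Oas and Mx genes 7 were higher in CT26 and 3 in MC38, and of the GTPases 4 and 1. When libraries were scaled to their total counts, the median of all genes moved by -0.32, the share of line calls that were higher in CT26 went from 49.9% to 34.1%, and the effectors split as 25 and 18; Mx2, Oas2, Tor3a, Sp100, Mx1, Rsad2, Iigp1 and Uba7 kept their direction under that scaling.

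**Figure D4:**
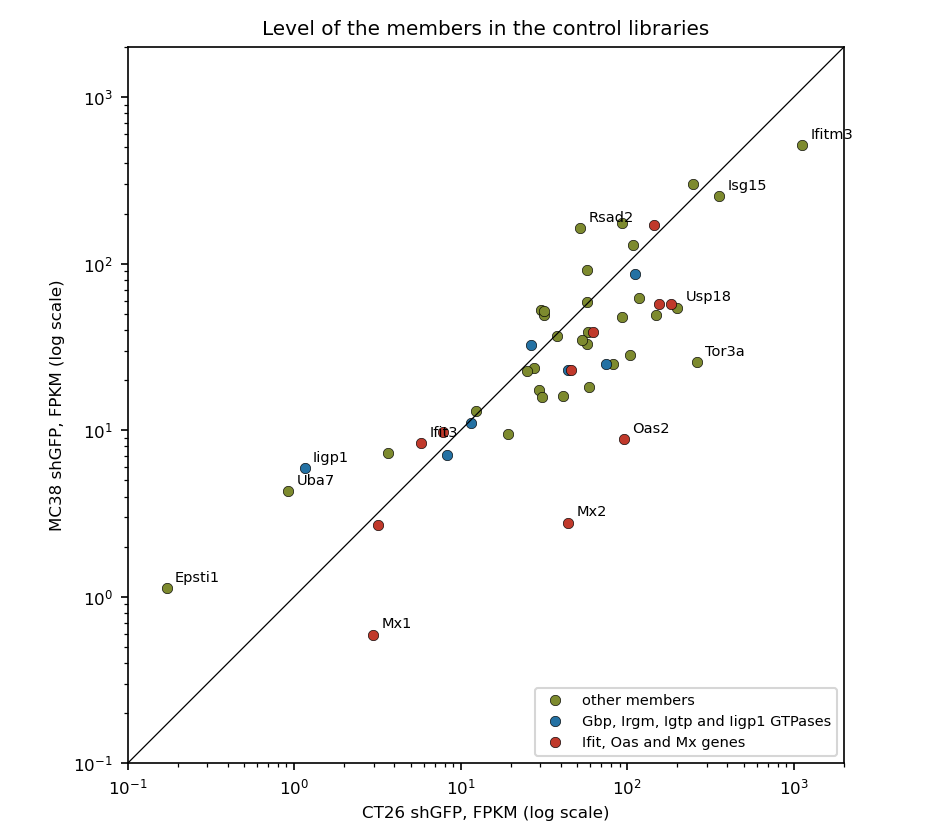
Deposited FPKM of the 51 effectors in the MC38 shGFP library against the CT26 shGFP library, on log axes, coloured by class, with the diagonal marking equal levels. Mx2, Oas2 and Tor3a lie far below the diagonal, Rsad2, Iigp1 and Uba7 lie above it, and Ifitm3 has the highest level in both.

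Other genes of the pathway were read with the same test, and 0 fell, also at an unadjusted p of 0.05 in edgeR. Of the transcription factors, Stat2 rose (log2 fold change 0.43 for CT26 and 0.39 for MC38, edgeR adjusted p = 0.00203). Irf7, the factor that amplifies interferon production, rose too (0.31 and 0.38, edgeR adjusted p = 0.0359), while Irf9, the DNA-binding partner of STAT2, had 0.13 and 0.16 and did not pass. Nor did Irf1 (-0.09 in CT26 and 0.13 in MC38), Irf2 (-0.11 and 0.06), Irf3 (-0.01 and -0.21) or the scarce Irf5 (1.03 and -0.60). Irf8 did not reach the count minimum. None of 8 receptor and kinase genes tested and none of 4 inhibitors passed in edgeR, with 0 also at an unadjusted p of 0.05. Of 8 interferon genes, 7 had 0 fragments in all 4 libraries, which allows up to 3 fragments in each. Ifnb1, the interferon beta gene, had 20 and 24 fragments in CT26 and 0 in both MC38 libraries.

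Among the markers of other cell types, 13 genes were tested and 0 passed in edgeR, with 1 higher and 3 lower at an unadjusted p of 0.05. The summed level of the leukocyte markers went from 6.33 to 5.30 CPM in CT26 and from 8.10 to 6.89 CPM in MC38, and most of it was Cd68 (4.02 to 5.76 CPM in the 4 libraries). Csf1r and Adgre1, both at low counts, were each higher in the knockdown library of one line and lower in that of the other. Csf1r went from 9 to 13 fragments in CT26, but from 39 to 24 in MC38. Adgre1 went from 5 to 1 in CT26, but from 6 to 9 in MC38. The endothelial marker Cdh5 went from 173 to 81 fragments in MC38, and from 24 to 25 in CT26. The part of these in the effector values was not tested.

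RefSeq gave a window from 250 bases before to 50 after the start site for 40 of the 51 effectors. Of these 40, 19 (47.5%) held ISRE letters and 9 (22.5%) held GAS letters, where 3.99% and 9.55% of 27025 genes with a window did. ISRE letters were present in 5 of 8 Ifit, Oas and Mx genes, 6 of 6 GTPases and 8 of 26 others, and GAS letters in 2 of 8, 3 of 6 and 4 of 26. A match is a description of letters, not evidence that a factor binds there. The stretches of Isg15 (chr4:156200819-156200948) and Rsad2 (chr12:26456453-26456582), both on the minus strand, are shown because these genes hold ISRE letters but only Rsad2 passed the test.
Isg15: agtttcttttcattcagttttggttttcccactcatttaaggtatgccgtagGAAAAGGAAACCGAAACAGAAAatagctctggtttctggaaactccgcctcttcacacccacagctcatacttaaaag
Rsad2: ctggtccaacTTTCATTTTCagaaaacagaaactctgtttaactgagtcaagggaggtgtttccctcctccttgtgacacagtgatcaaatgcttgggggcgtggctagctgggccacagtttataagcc
Isg15 holds 3 overlapping ISRE matches, and Rsad2 holds 1. Across the effectors, ISRE letters were found in 8 of the 16 that rose and had a window, and in 11 of the 23 that were tested and did not rise. The median log2 fold change of effectors with ISRE letters was 0.33 in each line, beside 0.26 in CT26 and 0.24 in MC38 for those without. With GAS letters, 1 of 9 effectors rose, and without them 15 of 30. Their medians were 0.21 in each line with GAS letters, and 0.37 in CT26 and 0.32 in MC38 without. Of the genes outside the set, 13 of 316 with ISRE letters rose (4.11%), and 117 of 8143 without them (1.44%). For GAS letters these were 11 of 694 (1.59%) and 119 of 7765 (1.53%). None of these differences was tested.

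**Figure D5:**
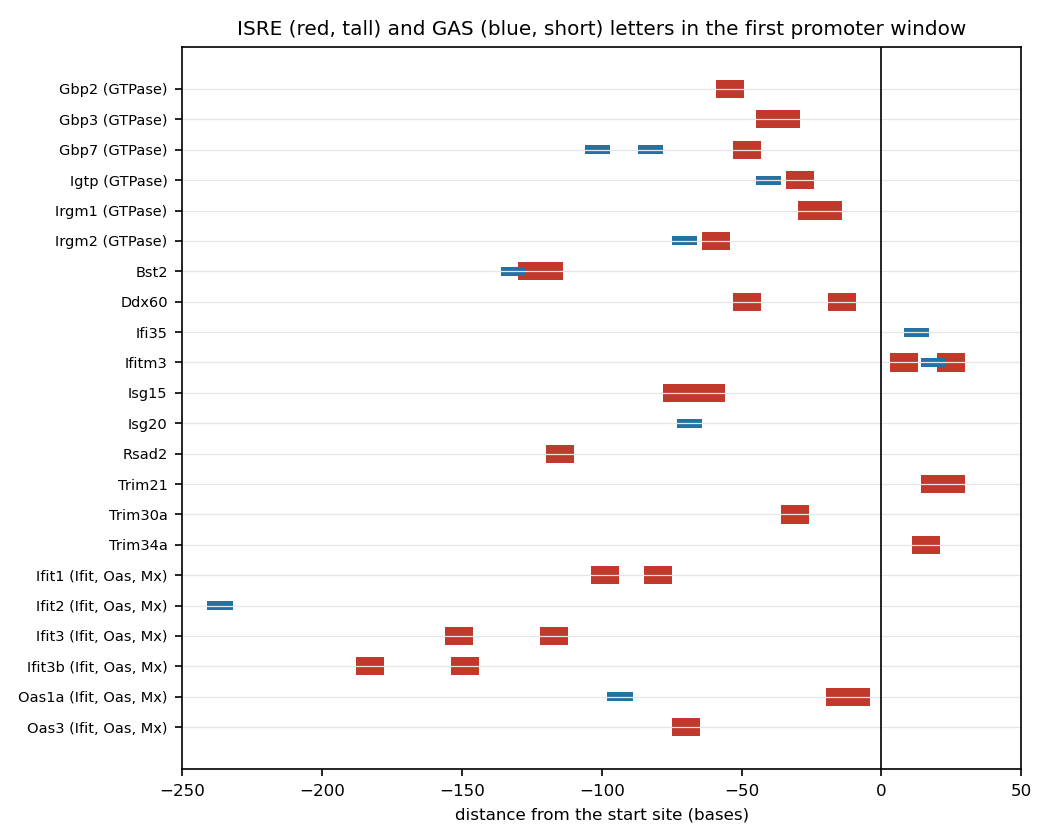
Position of ISRE letters (red, tall) and GAS letters (blue, short) relative to the start site, in bases, in the windows of the effectors that hold at least 1 of them. The ISRE letters of the 6 GTPases start between -64 and -24, and those of Ifit1, Ifit3 and Ifit3b between -188 and -85.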

How the data were processed

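RNA-seq libraries from 4 samples, 1 for each combination of cell line and hairpin, were analysed. Per the labels, libraries were made with a strand-specific kit and the submitters' processing notes name Trimmomatic 0.36, HISAT2, Cufflinks 2.2.1 and Cuffdiff. The authors deposited an estimated count per gene, scaled between libraries, and an FPKM value. Dividing the deposited estimated counts by a single step per library gave whole fragments for 96.9% to 97.4% of nonzero values, within 0.05. The notes name GRCm39, but 99.7% of matched genes overlapped their GRCm38.p6 positions and 9.65% their GRCm39 positions, so coordinates are GRCm38.

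Counts were rounded, normalized with TMM and tested with edgeR 4.0.16 (R 4.3.3), in genes whose mean was 10 counts or more in both lines. Cell line was the block, and the Benjamini-Hochberg threshold was 0.05. The prior degrees of freedom were infinite. Within a line, 1 count was added before the log2 fold change and no test was possible. On simulated counts of 11928 genes, the common test recovered 74% of 100 genes changed 1.5-fold and 99% of 100 changed 3-fold, and 5.46% of 183 calls were false. The simulation gave every gene the same spread, and each changed gene the same fold change in both lines, as the test assumes. It therefore cannot give the share of false calls among the real libraries. Alternatives were DESeq2 1.42.0 as a test and for its size factors, limma 3.58.1 on FPKM, total-count scaling, other count minimums and added counts, no block and genes with a locus of their own. Whole fragments and limma-voom were added after seeing the data. Python 3.11.15, numpy 2.4.6, pandas 2.3.3, scipy 1.17.1 and matplotlib 3.10.9 were used for the rest.

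The members, gene lists, groups and letters searched were chosen with earlier results of these data known. Values in all libraries are given for Aurka, the 18 genes of the 2 contrasted classes, the 10 others with the largest mean change, members called lower or moved over 1.5-fold in opposite directions (none), and the 3 with the highest FPKM. An item of the pathway list is not reported here. Nothing states that the libraries came from separate cultures. Windows of Iigp1, Rtp4, Oas2, Ifi27, Mx1, Tor3a, Parp9, Usp18, Parp10, Mx2 and Parp14 were not analysed here.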

Additional observations from a re-analysis of the deposited data

Results flagged for a closer look

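Of the 50 effectors tested, 3 moved in opposite directions in the lines, while 46 were higher in both and 1 was lower in both. Over all genes tested, 28.0% were higher in both lines and 28.9% lower in both, and the rest had no common direction. Each condition had 1 library, and no test of the difference between the lines was made. The log2 fold change of Ifi35 was 0.18 in CT26 and -0.072 in MC38. Samd9l had -0.0054 in CT26 and 0.33 in MC38. Trim25 had -0.018 in CT26 and 0.095 in MC38. For all 3, the counting interval of the negative value included no change.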

How the results depend on the processing

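The count of 21 effectors that rose was most sensitive to the model. It was 20 with DESeq2's size factors, 21 with whole fragments, 18 with total-count scaling, 17 with limma-voom and 17 without a filter on low counts, but 11 with a minimum of 50 counts, 3 with the DESeq2 test and 0 with limma on FPKM with a pseudocount of 1 or 0.1, where 27 were higher and 1 lower at an unadjusted p of 0.05. Cell line served as the block that pairs the libraries. The fit with no replicate block called 0 effectors, with 0 at an unadjusted p of 0.05, and 0 of all genes. Leaving out any library left no residual degrees of freedom, so no such test was run, and the values within each line stand in its place. Over the settings other than DESeq2's test, FPKM and no block, Oasl1 lost its call in 5, Ddx60 in 4, and Uba7 and Irgm1 in 3 each. Among the 32 tested effectors with a locus of their own, 14 rose, beside 21 of all 50. Of these 32, 17 were higher in CT26 and 10 in MC38, beside 28 and 14 of all 50. In CT26, 3 of the 32 were over 1.5-fold higher with shmaurka-1, beside 5 of all 50. The shares over all genes with a locus of their own were not computed. No log2 fold change in the common test changed sign in 497 alternative values for single effectors.

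The order of the lines turned for genes near equal levels. Under total-count scaling, the log2 difference (CT26 over MC38) became -0.023 for Ifit3b, -0.17 for Ifi35, -0.20 for Parp14, -0.19 for Herc6 and -0.19 for Gbp2. It became 0.0072 for Parp12 with limma on FPKM, 0.076 without a filter and 0.0013 without the block, and 0.049 for Gbp3 and 0.030 for Ddx60 without a filter. Within MC38, Uba7 had -0.027 with FPKM and a pseudocount of 0.1 and -0.022 with a pseudocount of 1. Total-count scaling also moved the median line difference over all genes tested by -0.32. The cause of the changes in single genes was not tested. Over settings, the median of the effectors lay between 0.295 and 0.322 in CT26 and between 0.278 and 0.323 in MC38. With 1 library per condition and 1 hairpin, neither the spread between cultures nor effects of the hairpin on other genes could be measured.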
